A study of Mus musculus with 3 samples.

Results

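The 38 genes described here encode the T cell receptor complex and the proteins that act first when it is engaged. They were taken by name from the 22457 genes of the deposited count tables: 5 receptor subunits, 3 coreceptor chains, 5 surface modulators, 6 kinases or kinase regulators, 8 adaptors, 7 effectors and 4 brakes. Polyadenylated RNA came from regulatory T cells, a CD4 T cell lineage that suppresses immune responses, taken as primary cells of mouse origin, male and adult, at 4 months. The labels give no strain, tissue, sorting gate, treatment or number of animals. The RNA was sheared by sonication, and the 3 libraries are technical replicates (numbered 1, 2 and 3) of a single biological replicate. They form 1 group, so conditions cannot be compared. Every SD and p-value below measures the spread between technical libraries.

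The T cell receptor has no enzyme activity of its own. Its antigen-binding chains sit in the membrane with CD3 gamma, delta, epsilon and zeta chains, whose tails carry tyrosine motifs. When antigen is bound, the kinase Lck, brought in by a coreceptor, phosphorylates these motifs, the kinase Zap70 docks on them, and Zap70 phosphorylates the adaptors Lat and Slp76 (gene Lcp2), on which the effector enzymes assemble. Regulatory T cells need this receptor for their suppressive function, and their receptors are often directed at self antigens.

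Totals were 3316275 counts for library 1, 3079004 for library 2 and 2782259 for library 3. CPM below is a gene's count scaled to a library total of 1000000. At a threshold of 1 CPM in each library, 37 of the 38 genes were detected, against 10611 of all 22457 genes. Cd8a was the member that was not. Of all counts, 1.463%, 1.481% and 1.501% fell on the 38 genes in the 3 libraries (1.48% ± 0.019, SD, n = 3). Their median level was 319 CPM, beside 18.0 CPM over the 15171 genes with any count. Levels of different genes are compared below per coding length. On that scale the median was 198 CPM per coding kilobase, beside 13.0 over the 14916 genes with a count and a coding length. Of the members, 21 were among the top 10% of those genes. In bulk RNA, fewer cells of a type and less RNA per cell cannot be told apart.

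Defining markers of the labelled cell type were present. The 5 regulatory T cell markers, Foxp3 among them, were detected in every library and summed to 1746, 1714 and 1874 CPM. Rag1, Rag2 and Ptcra, genes of developing thymocytes, had no count in any library, and none of 6 natural killer cell markers was detected (Klra4 at 0). Of the gamma delta T cell list 2 of 6 genes were measured and none detected, with Sox13 at 0. The 10 B cell markers summed to 71.5, 177 and 200 CPM, with 8 of 10 detected and Pax5 at 0, 1 and 1 counts. The 7 monocyte and macrophage markers summed to 57.9, 113 and 47.1 CPM, with 3 of 7 detected. Of 6 dendritic cell markers, 1 was detected, Clec9a had no count, and their sums were 5.73, 20.5 and 11.5 CPM. Marker RNA of B cells was thus lowest in library 1 and that of myeloid cells highest in library 2. These values stand beside the B and myeloid relatives of members below, and the part of such cells in any result was not tested.

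The CD3 genes Cd3g, Cd3d and Cd3e lie side by side on chromosome 9. Cd3d and Cd3g are transcribed away from each other with 1354 bases between their starts, and Cd3e begins on the minus strand with 11400 bases between its end and that of Cd3d. The windows from 250 bases before to 50 bases after the start of these neighbours are shown, with that of Cd8a, the member not detected. Levels by coding length were 722 (Cd3g), 712 (Cd3e) and 594 (Cd3d) CPM per coding kilobase. By summed exon length they were 121, 98.9 and 200 CPM per exon kilobase. The windows are RefSeq windows on GRCm38.p6, written 5′ to 3′ on the gene's own strand. Capitals mark the letters AGGAAG or their reverse complement CTTCCT. This string is a longer form of GGAA, the core that ETS family factors such as Ets1 and Elf1 bind.
Cd3d, chr9:44981536-44981835, plus strand: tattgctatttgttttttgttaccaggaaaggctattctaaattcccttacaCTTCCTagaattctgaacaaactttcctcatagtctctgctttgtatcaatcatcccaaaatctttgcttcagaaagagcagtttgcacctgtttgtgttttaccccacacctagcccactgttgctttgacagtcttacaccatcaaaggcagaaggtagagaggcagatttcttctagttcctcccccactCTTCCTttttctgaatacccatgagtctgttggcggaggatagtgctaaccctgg
Cd3g, chr9:44980382-44980681, minus strand: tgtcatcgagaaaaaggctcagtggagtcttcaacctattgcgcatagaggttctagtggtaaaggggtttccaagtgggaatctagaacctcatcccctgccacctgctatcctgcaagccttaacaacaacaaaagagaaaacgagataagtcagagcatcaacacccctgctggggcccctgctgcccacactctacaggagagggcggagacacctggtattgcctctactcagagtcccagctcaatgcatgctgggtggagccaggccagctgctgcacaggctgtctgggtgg
Cd3e, chr9:45009562-45009861, minus strand: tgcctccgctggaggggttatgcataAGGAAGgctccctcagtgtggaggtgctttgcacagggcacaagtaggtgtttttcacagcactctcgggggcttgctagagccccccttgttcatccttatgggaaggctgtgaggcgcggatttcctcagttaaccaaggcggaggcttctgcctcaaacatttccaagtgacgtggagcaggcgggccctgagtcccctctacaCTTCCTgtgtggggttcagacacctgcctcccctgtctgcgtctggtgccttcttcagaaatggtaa
Cd8a, chr6:71373177-71373476, plus strand: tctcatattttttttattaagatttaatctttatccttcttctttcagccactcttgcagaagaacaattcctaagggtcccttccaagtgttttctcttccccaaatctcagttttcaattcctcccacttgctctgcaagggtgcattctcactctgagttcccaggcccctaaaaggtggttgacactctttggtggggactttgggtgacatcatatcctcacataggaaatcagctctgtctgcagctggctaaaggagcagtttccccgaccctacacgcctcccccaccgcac
The Cd3d and Cd3e windows each held 2 matches to AGGAAG, and those of Cd3g and Cd8a held 0. The shorter GGAA, which was not counted, does occur in the Cd3g and Cd8a windows. Over both strands, AGGAAG stood in 35.4% of the 32851 windows of the table and in 25 of the 41 windows (61.0%) that belong to the 28 members with an entry. The letters TGTGGT or ACCACA, the core bound by RUNX factors, which regulate the coreceptor genes, stood in 16.8% of all windows and in 5 of the 41 (12.2%), and in none of the 4 shown. A match is only a string of letters, and its absence says nothing of a factor's binding. Whether matches go with a gene's level was not tested.

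Receptor subunits had the highest median of the roles, 712 CPM per coding kilobase, and 4 of their 5 genes were among the first 7 of the list. By summed exon length in place of coding length they also had the highest median, 121 CPM per exon kilobase beside 117 for the surface modulators, but single ranks changed: Cd2 stood first, Trac second, Cd3d 4th, Cd3g 12th and Cd3e 15th. Trac, the constant region of the receptor alpha chain (chromosome 14, 54220521 to 54224206, plus strand, GRCm38), stood first by coding length at 835, 879 and 946 CPM per coding kilobase in libraries 1, 2 and 3. On that scale its range did not overlap that of the next gene. Cd3g, encoding CD3 gamma, had 669, 712 and 785 CPM per coding kilobase. Cd3e, encoding CD3 epsilon, had 664, 703 and 768, and Cd3d, encoding CD3 delta, had 551, 589 and 642. In each of these 4 genes library 1 was lowest and library 3 highest. Cd247, which encodes the zeta chain that carries most of the receptor's tyrosine motifs, stood apart from them at 263, 248 and 295 CPM per coding kilobase.

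Ratios of genes inside a library do not use its total. Counts of Trac, Cd3g, Cd3e, Cd3d and Cd2 stayed nearly equal in all libraries, and those of Lat and Lck differed less than the totals (below). Whether those counts follow the amount of RNA was not tested, so folds with these genes describe counts, and steady ratios between them show no more than steady counts. The log2 ratio of Cd3e to Cd3g per coding base was -0.01, -0.02 and -0.03, a 0.986-fold ratio of summed counts whose exact 95% interval of 0.942 to 1.03 includes equality. Cd3d stood at 0.823-fold of Cd3g (0.785 to 0.863), with log2 ratios of -0.28, -0.27 and -0.29. Trac had 1.25-fold the counts per coding base of Cd3e (1.19 to 1.31), and 3.93-fold by summed exon length. By that length Cd3d stood above Cd3g and Cd3e, with log2 ratios of 0.73 for Cd3d to Cd3g and -1.02 for Cd3e to Cd3d, so the order among these 3 genes is set by the length chosen. Cd247 had 0.378-fold the density of Cd3e (0.357 to 0.399) and stood below it under each length. Its count is uncertain, since 32.3% of its coding 31-base stretches also occur in other genes, mainly Pou2f1, which overlaps it on the opposite strand. The related Fcer1g, the gamma chain that serves Fc receptors in myeloid cells, had 3, 21 and 11 counts against 684, 597 and 642 of Cd247, and was highest in library 2, as the myeloid markers were. Cd247 was 23.3-fold denser over summed counts (16.7 to 33.5), 40.2-fold without library 2 and 9.01-fold by summed exon length.

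Among coreceptors, the cells had Cd4 with almost no Cd8a, yet Cd8b1 was present. Cd4, which binds class II molecules and carries Lck (chromosome 6, 124864692 to 124888221, minus strand), stood at 416, 455 and 394 CPM per coding kilobase, from 1892, 1920 and 1501 counts. Cd8a, the alpha chain of the class I coreceptor, had counts of 0, 0 and 1. A count of 0 allows up to 0.905 CPM in library 1 and 0.974 in library 2. Per coding base, Cd4 stood 2872-fold above Cd8a over summed counts, with an exact interval of 515 to 113442. The fold was 1849 without library 1, 1834 without library 2 and 4792 by summed exon length, and without library 3 Cd8a had no count. Cd8b1, the beta chain, had 71, 62 and 89 counts, or 33.5, 31.5 and 50.1 CPM per coding kilobase, which is 257-fold the density of its neighbour Cd8a (interval 45.7 to 10213), or 544-fold by summed exon length. The genes lie on the same strand with 35932 bases between them. The CD8 T cell list summed to 30.2, 32.2 and 42.1 CPM, most of it Cd8b1, with 3 of 5 markers detected. The other members of that list were Gzmk at 18, 23 and 22 counts, Eomes at 6, 6 and 2 and Klrd1 at 5, 8 and 3, so Cd8b1 had more counts than any of them in each library. In CPM, library 3 was highest for Cd8b1, Cd8a, Gzmk and the list's sum, and lowest for Eomes and Klrd1. It was also lowest for Cd4. Whether the Cd8b1 counts come from other cells was not tested, and Cd8a, which defines CD8 T cells, was at or near 0 in each library.

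**Figure D1:**
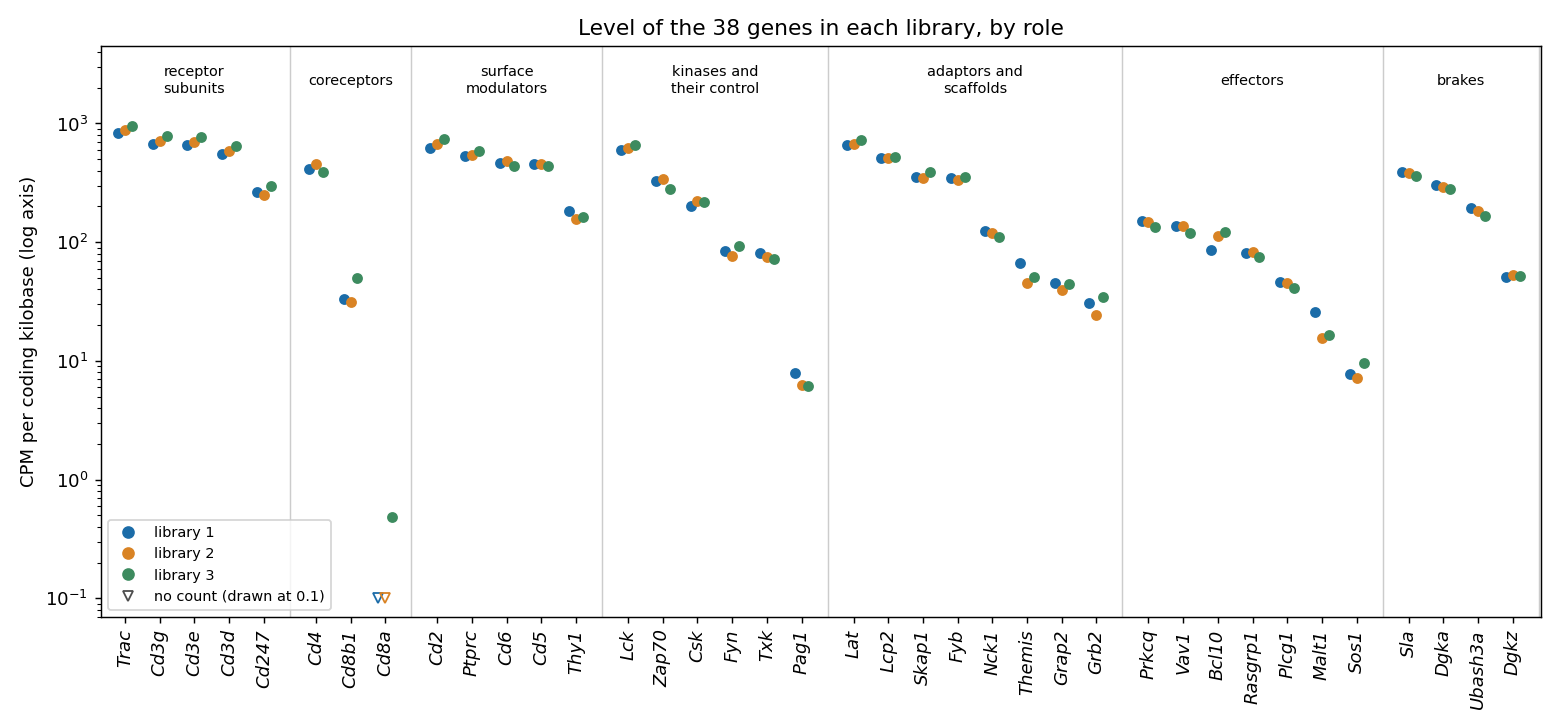
Level of each of the 38 genes in CPM per coding kilobase (vertical log axis), grouped by role along the horizontal axis, with 1 point for each of the 3 libraries; open triangles mark a count of 0. Trac lies highest, Cd8a is the only gene near or at 0, and the spread between libraries is small beside the distance between most roles' extremes.

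Surface modulators took the largest share of the counts of any role, 0.452% ± 0.012 (SD, n = 3). Ptprc encodes CD45, the phosphatase that keeps Lck ready to act (chromosome 1, 138062861 to 138175708, minus strand), and had 6834, 6502 and 6345 counts. At 3879 coding bases this came to 531, 544 and 588 CPM per coding kilobase. Cd2, an adhesion receptor that aids contact with the antigen-presenting cell, was denser at 621, 665 and 733. Cd6 and Cd5 are related scavenger-type receptors, Cd5 being a known damper of receptor signals, and they are neighbours on chromosome 19. Cd6 had 468, 481 and 435 CPM per coding kilobase and Cd5 had 453, 455 and 440. The ranges of the pair overlapped, and the log2 ratio of Cd5 to Cd6 was -0.05, -0.08 and 0.01. Thy1, a surface glycoprotein of mouse T cells, was the lowest of the role at 184, 158 and 162.

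Among kinases, Lck and Zap70 had far more counts per coding base than their relatives. Lck (chromosome 4, 129548344 to 129573641, minus strand) stood at 597, 624 and 665 CPM per coding kilobase, and Fyn, the other Src family kinase of T cells, at 85.0, 77.2 and 93.8. Lck thus had 7.37-fold the counts per coding base of Fyn (6.96 to 7.80), with log2 ratios of 2.81, 3.02 and 2.83. The other relatives in the Src family stood lower still. Lck was 46.0-fold denser than Lyn, whose count is uncertain because 46.1% of its coding 31-base stretches occur in other genes, 55.1-fold denser than Fgr and 183-fold denser than Blk, a kinase of B cells. Src had 6, 5 and 10 counts and Yes1 had 7, 5 and 4, and Lck was 444-fold and 583-fold denser than these. By summed exon length the fold over Yes1 was 1437.

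Zap70, the kinase that docks on the phosphorylated receptor (chromosome 1, 36761798 to 36782818, plus strand), had 2000, 1946 and 1449 counts. Its relative Syk, which does the same work in B and myeloid cells, had 2, 15 and 6 counts, and Zap70 was 239-fold denser (159 to 377). The fold was 439 without library 2 and 734 by summed exon length. Syk was lowest in library 1 and highest in library 2, as the dendritic cell markers were. The B cell markers were also lowest in library 1, but highest in library 3. The monocyte and macrophage markers were also highest in library 2, but lowest in library 3. The Tec family kinases activate phospholipase C gamma after Lck. Their member Txk stood at 81.0, 75.7 and 72.5 CPM per coding kilobase and was 3.90-fold denser than Tec (3.45 to 4.41) by coding length, but 1.12-fold by summed exon length. Btk, the B cell form, had 2, 21 and 24 counts and was lowest in library 1, as the B cell markers were. Txk was 29.6-fold denser than Btk over summed counts (22.1 to 40.5), 19.1-fold without library 1 and 6.87-fold by summed exon length.

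Csk, which switches Src kinases off, and Pag1, the membrane anchor that recruits it, were far apart in level. Csk stood at 203, 223 and 219 CPM per coding kilobase. Pag1, with 34, 25 and 22 counts, stood at 7.97, 6.31 and 6.14 and was the lowest of the detected members. Csk was 31.3-fold denser than Pag1 (25.1 to 39.6; 84.2-fold by summed exon length) and 1.35-fold denser than its relative Matk (1.28 to 1.43).

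Adaptors spanned a wide range, with the core scaffolds at the top. Lat, the membrane scaffold phosphorylated by Zap70 (chromosome 7, 126363824 to 126369570, minus strand), stood at 663, 667 and 729 CPM per coding kilobase, and Lcp2, its cytosolic partner, at 508, 516 and 517. Lcp2 had the smallest spread of the detected members, a coefficient of variation (CV) of 1.01%. Skap1 and Fyb, which together link the receptor to integrin adhesion, followed with 351, 345 and 388 for Skap1 and 349.5, 336.5 and 356 for Fyb. Nck1, which ties the receptor to the actin cytoskeleton, had 124, 119 and 111. Themis, which tunes the receptor signal and is known for its part in thymic selection, had 66.6, 45.4 and 50.5, higher in library 1 than in the others. Grap2, encoding the Gads adaptor that joins Lat to Slp76, had 45.5, 39.4 and 44.5, and Grb2, the adaptor that brings in the Ras activator Sos, had 31.03, 24.4 and 34.8. Grb2 shares 56.7% of its coding 31-base stretches with a processed pseudogene and others, so its count is uncertain. The same holds, with smaller shares, for Nck1 (20.0%), Bcl10 (17.3%), Skap1 (15.3%), Plcg1 (9.2%) and Dgkz (5.5%).

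The lymphocyte relatives of these adaptors divided into those near 0 and those well above it. Fyb2 had no count in any library. Fyb was at least 2526-fold denser with 3 summed counts as the limit for Fyb2, and at least 2054-fold by the exact interval. Lcp2 was 2080-fold denser than Clnk, which had 2, 1 and 0 counts (711 to 10087; 4010-fold without library 1 and 1023-fold by summed exon length). Blnk, the B cell counterpart of Slp76, had 0, 19 and 23 counts, and Lcp2 was 154-fold denser (114 to 214). That fold was 98.9 without library 1, 236 without library 3 and 255 by summed exon length. Lat was 16.1-fold denser than Lat2. Themis was 12.9-fold denser than Themis2, but 3.45-fold by summed exon length. Nck1 was 8.14-fold denser than Nck2 and Skap1 5.41-fold denser than Skap2, or 12.1-fold by summed exon length. The counts of Nck2 and Skap2 are uncertain too, with 44.8% and 7.85% of their coding 31-base stretches in other genes. In the Grb2 family the order was the other way. Grap, a close relative of Grap2 and Grb2, had 766, 768 and 633 counts, and Grap2 had 0.119-fold its density (0.107 to 0.132), or 0.0623-fold by summed exon length. Log2 ratios of Grap2 to Grap were -2.96, -3.28 and -2.97. Grap2 was 1.44-fold denser than Grb2 (1.21 to 1.72).

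**Figure D2:**
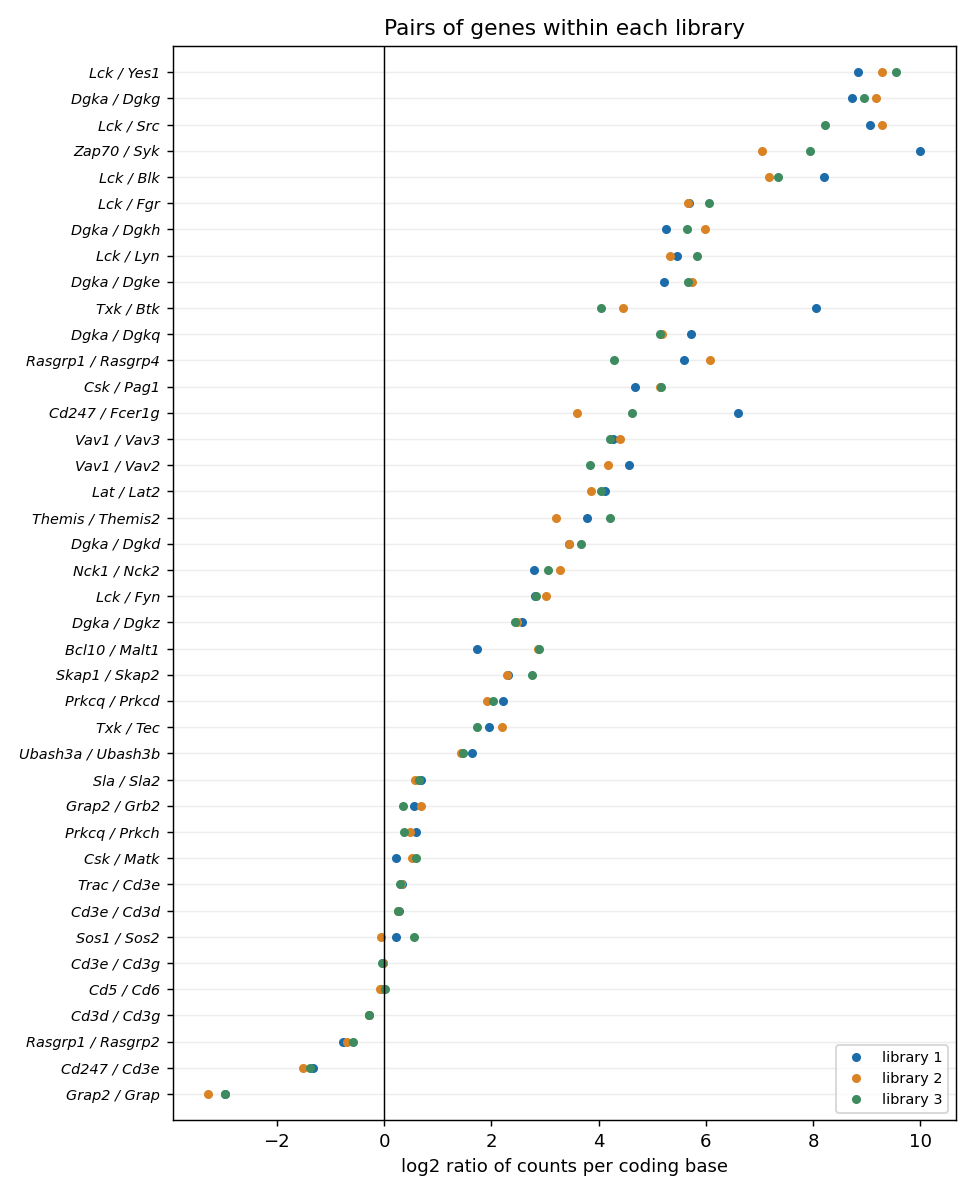
Log2 ratio of counts per coding base for pairs of genes in which both had counts in every library, with 1 point per library; the vertical line marks equal density. Ratios of Lck, Zap70 and Dgka to most relatives lie far to the right, Grap2 to Grap lies farthest left, and pairs of CD3 genes lie close to the line with their libraries on top of each other.

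Effectors had a median of 79.9 CPM per coding kilobase, below the medians of the receptor subunits (712) and of the kinases and their control (150). Their highest mean was 145, that of Prkcq, which was above Fyn (85.3), Txk (76.4) and Pag1 (6.81) of the kinase role. Prkcq, the protein kinase C theta that leads to NF-kappaB, stood at 151, 149 and 135 CPM per coding kilobase. Vav1, a guanine nucleotide exchange factor that reshapes the cytoskeleton, had 136, 136 and 119. Rasgrp1, the exchange factor that starts Ras activation when diacylglycerol is made, had 81.9, 82.3 and 75.4. Plcg1, the phospholipase that makes diacylglycerol and the calcium-releasing messenger, had 45.9, 45.2 and 41.0, and Sos1, the other Ras exchange factor, had 7.77, 7.22 and 9.54. The Rasgrp1 level was thus above that of Sos1 in every library.

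Bcl10 and Malt1 act together in the complex that activates NF-kappaB. Bcl10 had 199, 245 and 236 counts and Malt1 had 221, 124 and 118. In library 1 Bcl10 was low and Malt1 high. Their log2 ratio per coding base was 1.73 in library 1 and 2.86 and 2.88 in libraries 2 and 3, and Bcl10 was 5.4-fold denser over summed counts (4.79 to 6.09).

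Relatives of the effectors differed in how far they stood from the T cell form. Plcg2, the phospholipase of B cells, had 0, 23 and 6 counts, and Plcg1 was 53.1-fold denser (36.8 to 79.5). That fold was 168 without library 2, 33.1 without library 1 and 30.3 by summed exon length. Vav1 was 18.4-fold denser than Vav2 and 19.7-fold denser than Vav3, or 32.1-fold and 31.6-fold by summed exon length. Rasgrp3, known from B cells, had 0, 13 and 7 counts and Rasgrp4 12, 8 and 23, and Rasgrp1 was 76.2-fold and 36.6-fold denser than these. The fold over Rasgrp3 was 48.03 without library 1 and 143 without library 2, and that over Rasgrp4, of whose coding 31-base stretches 6.23% occur in other genes, was 56.2 without library 3. Rasgrp2, which activates the integrin regulator Rap1, had 872, 765 and 591 counts, so that Rasgrp1 had 0.620-fold its density (0.582 to 0.660). By summed exon length that ratio turned, to 0.81 on the log2 scale. Prkcq was 4.17-fold denser than Prkcd and 1.40-fold denser than Prkch (1.32 to 1.49). Sos1 and Sos2 could not be separated, at 1.18-fold (0.993 to 1.40) with log2 ratios of 0.23, -0.06 and 0.56.

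Brakes had a median of 236 CPM per coding kilobase, beside 233 for the adaptors, and by summed exon length 34.7 beside 52.5 CPM per exon kilobase. Sla encodes an adaptor that promotes loss of the receptor from the surface, and had 391, 382 and 359 CPM per coding kilobase. Dgka and Dgkz encode diacylglycerol kinases, which remove the messenger that Rasgrp1 needs. Dgka had 301, 294 and 278 and Dgkz 50.5, 52.7 and 51.5. Dgka was 5.66-fold denser than Dgkz (5.37 to 5.96) and 11.4-fold to 488-fold denser than Dgkd, Dgkh, Dgke, Dgkq and Dgkg. By summed exon length the folds over Dgke, Dgkh and Dgkg were 102, 99.1 and 814. Ubash3a, a phosphatase-like suppressor of Zap70 signalling, had 194, 183 and 167, and was 2.87-fold denser than Ubash3b (2.69 to 3.06), or 1.59-fold by summed exon length. Sla was 1.56-fold denser than Sla2 (1.47 to 1.65), a ratio that turned to -0.73 on the log2 scale by summed exon length.

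In the order of all 38 genes per coding kilobase, 11 of the 37 neighbouring pairs had ranges over the libraries that did not overlap. Trac was separate from Cd3g. The genes from Cd3g through Cd3e, Lat, Cd2, Lck and Cd3d to Ptprc each overlapped the next. Separations then followed Ptprc, Lcp2, Cd4, Cd247, Csk, Thy1, Txk, Dgkz, Malt1 and Pag1. Among the 49 pairs of genes compared within libraries, the first-named gene was denser in every library in 34, the second in 6, and 7 had a count of 0 in at least 1 library. Of the 48 pairs with a fold over summed counts, summed exon length moved 26 by over 1.5 times and turned the direction of 6.

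The libraries were compared by a chi-square test of each gene's counts against the library totals, which allows for counting noise alone and compares libraries, not conditions. By this test with Benjamini-Hochberg adjustment at 0.05, 17 of the 37 members tested differed between libraries. Over all 10043 genes with 30 or more summed counts, 22.7% did. Members had more counts than most genes, which gives the test more power. The median CV of the detected members was 7.36%, with a range from 1.01% for Lcp2 to 29.4% for Malt1, beside 11.4% over all detected genes. These medians were not matched for count, and counting noise alone gives a lower CV at higher counts. Exact 95% Poisson intervals of the 3 libraries overlapped one another in 20 of the 38 members. This was not counted over all genes, so no share stands beside it.

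Of the 17 genes, 10 were highest in library 3, 4 in library 2 and 3 in library 1. This was not counted over all genes that differed, so no share stands beside it. Cd2, Cd3d, Cd3e, Cd3g and Lck, among the 10, had 1.8 or more counts per coding base. Of all 80 genes tested at that density, 77 were highest in library 3. Ptprc (chi-square adjusted p = 5.99e-07), Zap70 (adjusted p = 2.72e-06), Cd2 (1.37e-05), Themis (1.50e-05) and Malt1 (3.44e-05) had the smallest adjusted p. Zap70 was lowest in library 3, with 603, 632 and 521 CPM, as were Cd4, Cd6, Vav1 and Ubash3a. Themis was highest in library 1, with 134, 91.3 and 101 CPM, and so was Malt1, with 66.6, 40.3 and 42.4. Bcl10 was lowest there, with 60.0, 79.6 and 84.8 CPM (adjusted p = 0.00655). Cd8b1 (adjusted p = 0.0323) and Cd247 (0.0373) were highest in library 3. With library sizes scaled by TMM, which weighs out genes of extreme ratio, 13 members differed beside 22.0% of all genes. Of these, 11 were among the 17. Cd3d, Cd3e, Cd247, Cd8b1, Lck and Skap1 no longer passed, and Dgka and Prkcq did.

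Most of these calls rested on library 3. Without it, Themis, Bcl10 and Malt1 differed between libraries 1 and 2 (chi-square adjusted p = 3.53e-05, 0.0368 and 0.00035) and no other member did, beside 9.43% of all genes. Without library 1, 10 members differed beside 13.1% of all genes, 9 of them among the 17, with Fyn added (adjusted p = 0.0354). Themis, Bcl10 and Malt1 then did not pass, at adjusted p = 0.447, 0.705 and 0.839. Without library 2, 15 differed beside 15.3% of all genes, 14 of them among the 17, with Trac added (adjusted p = 0.0275), while Cd4, Cd247 and Cd8b1 no longer passed. Zap70, Cd2, Ptprc, Cd6, Vav1 and Skap1 passed in both comparisons that include library 3.

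**Figure D3:**
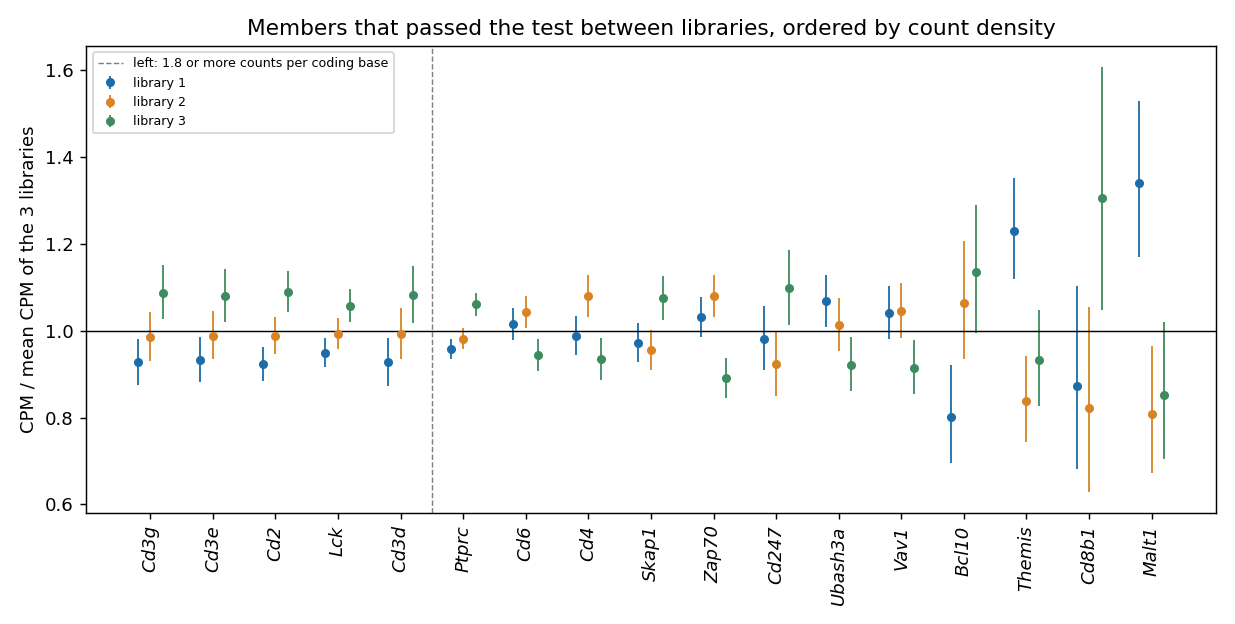
CPM of each library divided by the mean CPM of the 3 libraries for the 17 members that passed the chi-square test, ordered from dense to sparse; bars are exact 95% Poisson intervals of the counts. The 5 genes left of the dashed line, at 1.8 or more counts per coding base, show 1 pattern with library 3 highest and library 1 lowest, whereas Themis and Malt1 at the right are highest in library 1.

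The members with the most counts per coding base had nearly the same count in every library, although the totals differed 1.19-fold. Cd2 had 2127, 2114 and 2105 counts and Cd3g had 1212, 1197 and 1192. Cd3d had 1118, 1110 and 1094, Cd3e had 1248, 1228 and 1211, and Trac had 1135, 1110 and 1079. Lck, with 3087, 2999 and 2885, and Lat, with 1596, 1492 and 1472, varied more. Their highest counts were 1.07 and 1.08 times their lowest. Divided by a falling total, equal counts give a CPM that is lowest in library 1 and highest in library 3, which is the pattern of these genes. Count density, the mean count per coding base, was 2.70 for Trac, the highest of the 21140 genes with a coding length of 300 or more and the only one above 2.5. Cd3g had 2.20, Cd3e 2.17, Lat 2.09, Cd2 2.05, Lck 1.92 and Cd3d 1.81. Just outside the limit of 1.8 stood Ptprc at 1.69 and Lcp2 at 1.57.

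This was not particular to the list. Of all 80 genes tested at 1.8 or more counts per coding base, 77 had their highest CPM in library 3, and 68.8% differed between libraries, beside 5 of the 7 members there. The median ratio of the highest to the lowest library count was 1.02 over those genes and 1.03 over the members. At 1 to 1.8 counts per coding base, 4 of 8 members differed beside 35.4% of genes. From 0.2 to 1, 5 of 13 differed beside 27.6%, and under 0.2, 3 of 9 beside 19.4%. For Trac, the CD3 genes, Lat, Cd2 and Lck, a difference in CPM between libraries and the difference in library total cannot be told apart. The same limit holds for Ptprc, whose highest count was 1.08 times its lowest. What holds the counts level was not tested.

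**Figure D4:**
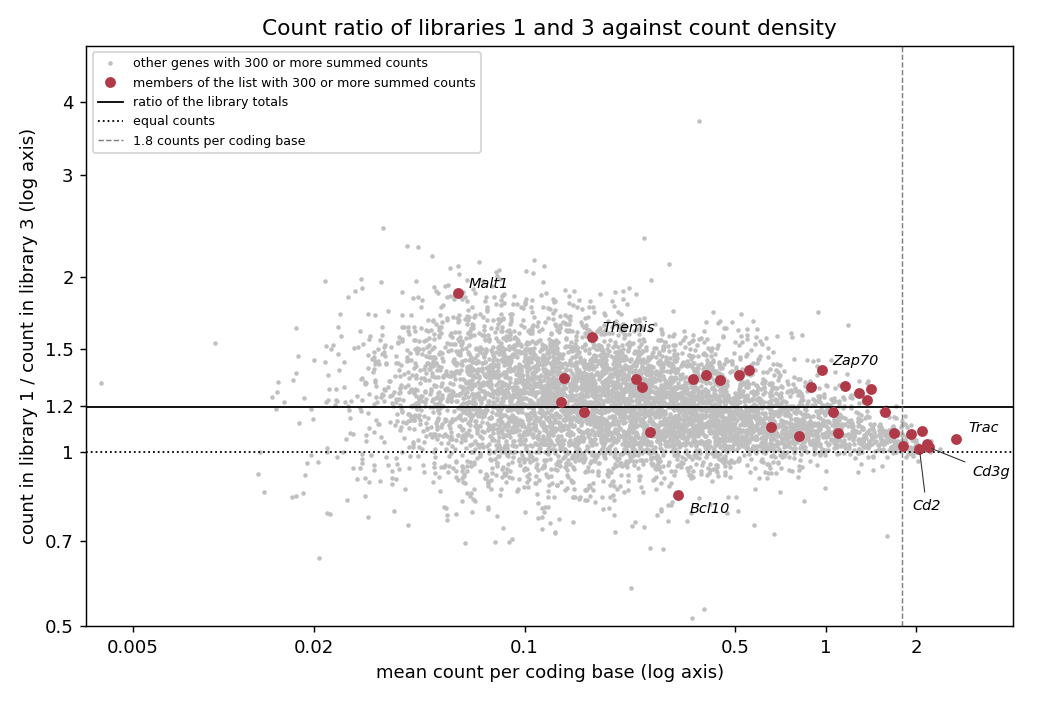
Count in library 1 divided by count in library 3 (log axis) against mean count per coding base (log axis) for genes with 300 or more summed counts, a coding length of 300 or more and a count in every library; members are red. The solid line is the ratio of the totals, 1.19, and the dotted line equal counts: the 7 members right of 1.8 lie near equal counts, while Malt1 and Themis lie above the solid line and Bcl10 below both.

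Other genes of the pathway, from a list of 52, were measured for 48 and detected for 47, and 19 of 47 tested differed between libraries beside the same 22.7%. Their median was 65.6 CPM per coding kilobase, against 198 for the members. The constant regions of the receptor beta chain, Trbc1 with 513, 516 and 514 counts and Trbc2 with 607, 556 and 566, stood at 319 ± 28.4 and 365 ± 24.2 CPM per coding kilobase, below Trac. They share 65.8% of their coding 31-base stretches with each other, so each count is uncertain. Trbc2, the adaptor Lime1 at 430 ± 6.74 and the inhibitory adaptor Dok2 at 428 ± 11.1 were the highest of the list. The Lime1 value is uncertain, since its coding sequence lies wholly within exons of Zgpat. The lowest were Gab2, with 1, 2 and 0 counts, and the phosphatase Ptprj at 4.46 ± 0.23. The gamma and delta constant regions were not analysed here. The 9 other brakes had the highest median of the other groups beside the constant regions, 141 CPM per coding kilobase, and calcineurin and NFAT genes the lowest, 26.3.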

How the data were processed

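Poly(A) RNA of mouse regulatory T cells was sequenced in 3 libraries. The deposited files hold whole-number counts per gene, 1 table per library, with no scaling. The counts come from an alignment to mm10 with GENCODE M4, per the notes deposited with the tables. Aligner, counter, strand use and treatment of duplicate reads: not given in the sources used here.

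The 38 members, their roles, the pairs and the other lists were chosen with earlier results of these data known. All members are named, and the pairs, a few of which are counted but not reported here by name. Of the other pathway genes the 3 highest and 2 lowest per coding kilobase, the constant regions and any that were not detected are named. Symbols and lengths came from GENCODE M21, a later release than that of the counts. Coding length is the union of coding bases, and levels are CPM of the library total, also per 1000 coding bases. Exons of other genes, and 31-mers shared with other transcripts, were searched, and over 5% marked a count as uncertain.

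Genes with 30 or more summed counts were tested by chi-square (2 degrees of freedom, scipy 1.17.1) on the authors' counts as deposited, with Benjamini-Hochberg adjustment over 10043 genes. A quasi-likelihood test between groups was not made, since there is 1 group. TMM factors came from edgeR 4.0.16 and size factors from DESeq2 1.42.0. The edgeR common dispersion gave a CV of 9.52% between libraries over 9620 genes. Intervals are exact at 95%, Poisson for counts and Clopper-Pearson for pairs. They cover counting error only, as does the limit of 3 counts for a count of 0. Alternatives were TMM and DESeq2 sizes, other minimum counts and CPM, other lengths, the share without the 100 most abundant genes, and each library left out.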

Additional observations from a re-analysis of the deposited data

How the results depend on the processing

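Of 37 members tested against library totals, 17 differed between libraries. The number was 13 with TMM sizes, 14 with DESeq2 size factors, 17 at a minimum of 10 summed counts and 16 with no minimum. Over all genes, 22.7% differed with totals and 22.0% with TMM sizes. The share of all genes was not counted for DESeq2 sizes or the other minimums. Leaving out 1 library gave 3 to 15 members beside 9.43% to 15.3% of all genes, with 3 when library 3 was left out. Of 30 members tested under 1.8 counts per coding base, an alternative added after seeing the data, 12 differed, and 3 to 9 with 1 library left out. A share over all 9909 genes tested under 1.8 was not counted, with all libraries or with 1 left out. With all libraries, 19.4% of all genes differed under 0.2 counts per coding base. From 0.2 to 1 the share was 27.6%, and from 1 to 1.8 it was 35.4%. The members' share of counts was 0.918% without the 100 genes of highest mean count, 6 of which are members. Ordered by summed exon length, 6 of the first 10 genes were the same as by coding length. That length turned 4 log2 ratios, Rasgrp1 to Rasgrp2 (0.81, from -0.68), Sla to Sla2 (-0.73, from 0.64), Cd3d to Cd3g (0.73, from -0.28) and Cd3e to Cd3d (-1.02, from 0.26), and moved those near 0 of Sos1 to Sos2 (-0.089) and Cd5 to Cd6 (0.23) across it. With no length, Cd3e to Cd3g was 0.034 (from -0.020) and Trac to Cd3e -0.15 (from 0.32). Folds of summed counts with 1 library left out, given beside the pairs they move by over 1.5 times, were added after seeing the data. The turns with length follow from the lengths alone, since the counts are the same. No paired analysis was possible because there is 1 group. The number of detected members was 37 at 5 CPM and 36 at 10 CPM. Genes with few counts, such as Cd8a, Pag1 and most relatives of B and myeloid cells, are limited by a depth of 2782259 to 3316275 counts a library.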
